A study of Sus scrofa with 6 samples.

Results

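Marker classes were compared among 4 pig induced pluripotent stem (iPS) lines, which are cells reprogrammed towards an embryonic state. The SSEA1-labelled lines were PS24, positive for SSEA1, SSEA3 and SSEA4 by its label, and 30AC5, labelled for SSEA1 alone. The SSEA3/SSEA4-only lines were iPF4-2 and iPSCs-w, both labelled for SSEA3 and SSEA4. The lines were chosen by these labels, and they are 4 of the 6 samples of the series. The other 2 are somatic: PEF, an embryo fibroblast culture, and PAFSC, amniotic fluid stem cells.

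All 4 lines shared DMEM with 15% FBS at 38.5 °C and feeder layers of growth-arrested mouse embryo fibroblasts, per the labels' protocols. The study's own lines were set against lines made in other laboratories that differed in markers and plasticity. The labels do not give the origin, reprogramming method or passage of a line, and how far these follow the marker class was not tested. Each line was 1 sample on 1 Affymetrix Pig Genome Array, with no repeat of any line. The p-values therefore measure the spread between lines of a class, and the number of arrays limits the precision.

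SSEA antigens are glycan epitopes on the cell surface, detected with antibodies and not by an expression array. SSEA1 is a fucosylated chain, also called Lewis X, and marks mouse embryonic stem cells. SSEA3 and SSEA4 are globo-series glycolipids and mark human embryonic stem cells. Pluripotent cells of both species depend on POU5F1 (OCT4), and epithelial adhesion genes are switched on during reprogramming of fibroblasts.

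A value is a log2 level relative to an unstated baseline of that probe set, so it can be compared across lines but not across genes. The log base was read from the range of the values, and the scaling between arrays is not given in the sources used here. Line medians lay between 0.004 and 0.048, and SDs over 23935 probe sets between 0.610 and 0.730. PS24 and iPSCs-w stood apart in their control probe sets. In PS24 the 5′ minus 3′ signal of GAPDH, actin and EF1A averaged -1.90, while in the other 3 lines it lay between -0.03 and 0.19. The bioB hybridisation controls averaged 0.98 and 0.33 in PS24 and 30AC5, against 0.32 and -2.93 in iPF4-2 and iPSCs-w. The part of either in the results was not tested.

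Lines of one class resembled each other more than lines of different classes did in the spread of their differences and in large differences. The median absolute difference over all probe sets did not separate the pairs. It was 0.343 between PS24 and 30AC5 and 0.332 between iPF4-2 and iPSCs-w, against 0.332 to 0.425 for pairs of different classes. The SD of the log2 difference over all probe sets was 0.704 between PS24 and 30AC5 and 0.736 between iPF4-2 and iPSCs-w. For the 4 pairs that cross the classes it was 0.846 to 0.961. Large differences were fewer within a class as well. A difference of at least 2 log2 units separated PS24 and 30AC5 at 504 probe sets (2.11%) and iPF4-2 and iPSCs-w at 566 (2.37%), against 887 to 1186 for pairs of different classes.

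**Figure D1:**
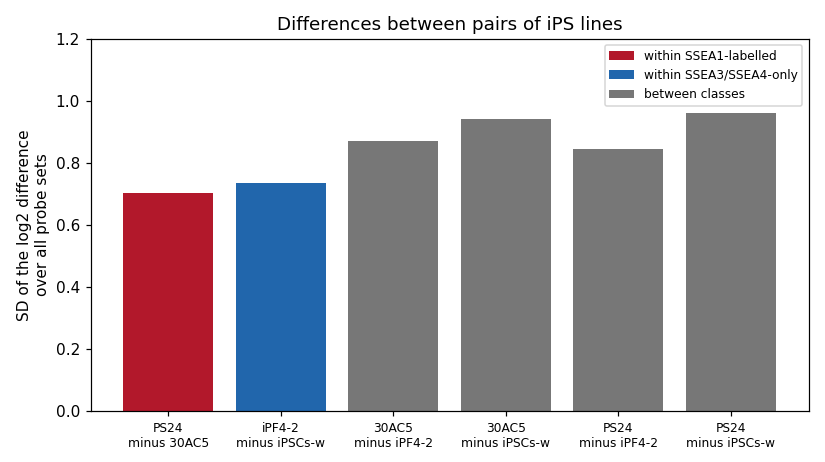
SD of the log2 difference over all 23935 probe sets for each pair of iPS lines, 1 array a line, with bars starting at 0. Both pairs within a class, at 0.704 and 0.736, lie below the 4 pairs between classes.

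Across all probe sets, limma on these 4 arrays with Benjamini-Hochberg adjustment called 4 of 23935 between the classes (0.0167%), 3 higher in the SSEA1-labelled lines (0.0125%) and 1 lower (0.00418%). At an unadjusted p under 0.05 there were 2655 (11.1%). Without any one of the 4 lines, limma called 0, with 1909 to 2650 at an unadjusted p under 0.05. Such a fit has 1 residual degree of freedom, takes the spread of the lone line from the other class, and says little about stability.

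The 1 named gene called was AIF1, which binds calcium and is known from macrophages. It was -1.63 and -1.86 in PS24 and 30AC5, against 3.87 and 3.74 in iPF4-2 and iPSCs-w. It was lower in the SSEA1-labelled lines than in the others, with a difference of -5.55 (SE 0.26, limma adjusted p = 0.0482). PEF, at -1.65, lay with the SSEA1-labelled lines. The call was lost with quantile normalization (limma adjusted p = 0.0596), with all 6 arrays in the fit (0.214) and against a minimum change of 1 (0.0737). Without any one line the limma adjusted p was 0.134 to 0.175. The other 15 measured genes of the blood and macrophage list differed by -0.40 to 0.62. PTPRC, the pan-leukocyte surface phosphatase CD45, was 0.17 and -0.01 in PS24 and 30AC5, against 0.18 and -0.02 in iPF4-2 and iPSCs-w.

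The 3 probe sets called higher carry no gene symbol in the platform annotation. The first was 6.51 and 6.41 in PS24 and 30AC5, against 0.01 and -0.24 in iPF4-2 and iPSCs-w (difference 6.57, SE 0.26, limma adjusted p = 0.0417). The second was 4.53 and 4.68 in the SSEA1-labelled lines, against -0.84 and -0.44 in the others (5.25, SE 0.28, limma adjusted p = 0.0495). The third was -0.09 and 0.09, against -4.71 and -4.65 (4.68, SE 0.25, limma adjusted p = 0.0495). At all 3 the lines of a class lay within 0.40 of each other, and the SSEA1-labelled lines lay above the others. At the third the SSEA1-labelled lines were near the baseline and the SSEA3/SSEA4-only lines far below it.

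Both lines of one class lay beyond both lines of the other at 9856 probe sets. The SSEA1-labelled lines were the higher ones at 5016 (21.0%) and the lower ones at 4840 (20.2%). With 2 lines a class, many probe sets separate by random order alone, so these shares do not by themselves show class agreement. A gap of at least 1 log2 unit between the nearest lines of the classes was rarer, at 510 probe sets higher (2.13%) and 335 lower (1.40%). Among these, the 2 lines of each class also lay within 1 unit of each other at 310 higher and 220 lower probe sets. Where the class means differed by at least 2 units, the classes did not overlap at 373 of 392 higher and 240 of 254 lower probe sets. Those probe sets were chosen by the class difference in the same values, which itself favours classes that do not overlap. The shares without overlap therefore do not show that lines of a class agree. PEF was not used to choose the probe sets with a gap of at least 1 unit. Its value was nearer the mean of the SSEA1-labelled lines at 357 of the 510 and at 250 of the 335. The share over all probe sets was not counted, so whether PEF resembled that class more cannot be read from these counts.

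The 30 genes with the widest gap, 15 in each direction, are described here as chosen by that gap. Their lack of overlap is therefore no result. Of the 15 higher genes 0 passed the threshold in limma (adjusted p 0.0512 to 0.151), and of the 15 lower genes 1 did, AIF1 (0.0482 to 0.232).

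**Figure D2:**
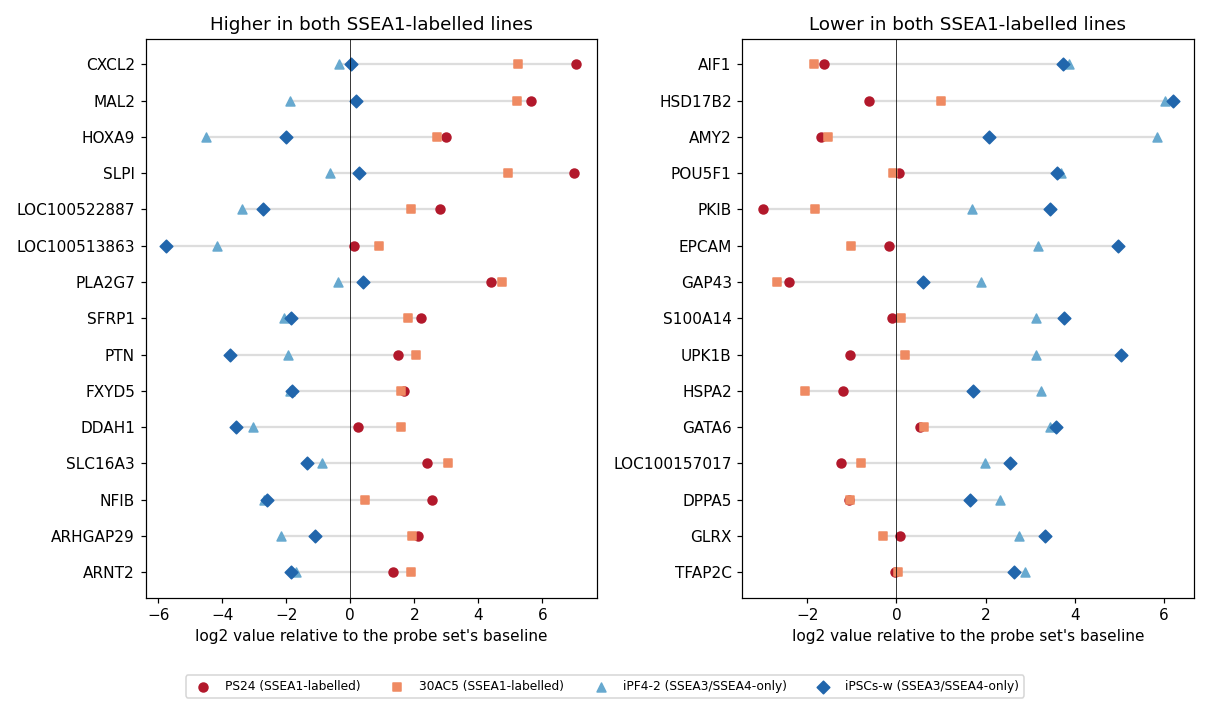
Log2 value of each iPS line, relative to the probe set's baseline, for the 15 genes per direction with the widest gap between the classes. One point is 1 line on 1 array, and a grey bar spans the 4 lines; the 2 lines of a class sit together for POU5F1, FXYD5 and GATA6 and apart for AMY2.

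Several of the higher genes encode secreted proteins. CXCL2, a neutrophil chemokine, was 7.06 and 5.24 in PS24 and 30AC5, against -0.35 and 0.02 in iPF4-2 and iPSCs-w (difference 6.31, SE 0.64, limma adjusted p = 0.0661). SFRP1, a secreted Wnt antagonist, was 2.20 and 1.79, against -2.08 and -1.84 (3.95, SE 0.29, limma adjusted p = 0.0512), and its second probe set gave 3.13. Each SFRP1 value lay within 0.41 of the other line of its class. PLA2G7, the enzyme that cleaves platelet-activating factor, was 4.40 and 4.73, against -0.38 and 0.38 (4.57, SE 0.36, limma adjusted p = 0.0527). PTN, the growth factor pleiotrophin, was 1.49 and 2.04, against -1.96 and -3.75, while its second probe set differed by 0.96. SLPI, a secreted protease inhibitor, stood at 6.99 and 4.92, against -0.63 and 0.26. The SSEA1-labelled lines differed by 2.07 from each other at SLPI and by 0.33 at PLA2G7.

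Others encode membrane proteins or transcription factors. FXYD5, a regulator of the sodium pump and of adhesion, was 1.66 and 1.57 in PS24 and 30AC5, against -1.89 and -1.82 in iPF4-2 and iPSCs-w (3.47, SE 0.25, limma adjusted p = 0.0512). SLC16A3, the lactate exporter MCT4, was 2.40 and 3.06, against -0.87 and -1.37 (3.85, SE 0.36, limma adjusted p = 0.0593). NFIB, a transcription factor of the nuclear factor I family, was 2.56 and 0.47, against -2.70 and -2.60. NFIB thus differed by 2.10 between the SSEA1-labelled lines themselves. MAL2, a protein of apical membrane transport, was 5.64 and 5.19, against -1.90 and 0.17 by 1 probe set, and differed by 0.54 by the other. The 2 probe sets of MAL2 therefore disagree in size. DDAH1, which breaks down a nitric oxide synthase inhibitor, was 0.25 and 1.60, against -3.04 and -3.56, and PEF was 2.73. ARNT2, a bHLH-PAS transcription factor, was 1.32 and 1.88, against -1.71 and -1.87 (3.39, SE 0.31, limma adjusted p = 0.0586).

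Of the lower genes, POU5F1, the pluripotency factor OCT4, was 0.07 and -0.07 in PS24 and 30AC5, against 3.68 and 3.61 in iPF4-2 and iPSCs-w (-3.65, SE 0.25, limma adjusted p = 0.0512). GATA6, a transcription factor of primitive endoderm, was 0.53 and 0.63, against 3.45 and 3.57 (-2.93, SE 0.25, limma adjusted p = 0.0552). TFAP2C, a factor of trophectoderm and germ cells, was -0.04 and 0.04, against 2.89 and 2.65 (-2.77, SE 0.26, limma adjusted p = 0.0594). In all 3 the 2 lines of a class lay within 0.24 of each other. HSD17B2, a steroid-inactivating dehydrogenase, was -0.62 and 0.99, against 6.03 and 6.21, and its second probe set differed by -5.60. S100A14, a calcium-binding protein of epithelia, was -0.10 and 0.10, against 3.12 and 3.76. UPK1B, the bladder surface protein uroplakin, was -1.04 and 0.19, against 3.14 and 5.04. Among these 3 genes, by the line values given, PS24 and 30AC5 were closest at S100A14, and iPF4-2 and iPSCs-w at HSD17B2. HSPA2, a heat shock chaperone of the testis, was -1.19 and -2.06, against 3.24 and 1.72. GLRX, the thiol oxidoreductase glutaredoxin, was 0.09 and -0.31, against 2.74 and 3.32, and its second probe set differed by -3.06. AMY2, pancreatic amylase, was -1.69 and -1.53, against 5.85 and 2.07, but of its other probe sets one differed by -5.19 and one by 0.80.

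The labels name all 4 lines pluripotent, and 3 of 16 core pluripotency genes of the list were measured. All 3 were lower in both SSEA1-labelled lines. Their median difference was -2.07, against -0.03 over all 6765 genes, and it was -2.92 without iPF4-2 and -1.22 without iPSCs-w. Over all genes, 46.5% were higher and 53.5% lower in the mean, and 20.3% and 23.4% had classes that did not overlap. DNMT3B, a DNA methyltransferase of early embryos, was 0.04 and -0.12 in PS24 and 30AC5, against 1.18 and 2.88 in iPF4-2 and iPSCs-w. ZFP42 (REX1), a zinc finger protein of pluripotent cells, was -0.69 and -0.62, against 0.47 and 0.80. POU5F1 in the SSEA1-labelled lines stood nearer to PEF, at -0.50, than to either SSEA3/SSEA4-only line. PAFSC was at 1.09, but its array had a median of 0.691 and an SD of 2.009 over the probe sets, so that value is not on the scale of the lines. Relative values do not show whether a gene was expressed, so the label could not be checked further by this gene. In a bulk culture, fewer cells of a type and less RNA per cell cannot be told apart.

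Naive-state genes were mostly lower as well: 5 of 6 measured genes, with a median of -1.09. Of the 5, 4 had no overlap, beside 23.4% of all genes. Among the 4, KLF2 was separated only narrowly, at 0.00 and -0.05 in PS24 and 30AC5, against 0.30 and 0.03 in iPF4-2 and iPSCs-w. NR5A2, also among the 4, had 5 probe sets that differed by -2.59 to 0.24. DPPA5, an RNA-binding protein of early embryos, was -1.07 and -1.04 in PS24 and 30AC5, against 2.31 and 1.64 in iPF4-2 and iPSCs-w (-3.03, SE 0.32, limma adjusted p = 0.0742). NR0B1 (DAX1), a nuclear receptor of embryonic stem cells, was 0.81 and -0.13, against 1.26 and 1.93. KLF4, a reprogramming factor, overlapped, since PS24 was at -2.91 and the other 3 lines between -0.80 and -0.63.

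The measured enzymes of the SSEA glycans were divided. Of 22 listed genes only 10 were measured, 6 of them higher and 4 lower. With no overlap were 2 and 1 of them, beside 20.3% and 23.4% of all genes. The median was 0.23 (0.03 without PS24, 0.13 without iPF4-2). B4GALT1, a galactosyltransferase of the chains that carry Lewis X, was 1.47 and 0.89 in PS24 and 30AC5, against -0.28 and 0.40 in iPF4-2 and iPSCs-w (1.12, SE 0.37, limma adjusted p = 0.388). B3GALNT1, the enzyme that makes globoside, the precursor of SSEA3, was -0.59 and -0.33, against 0.26 and 0.13 as a mean of its 2 probe sets. ST3GAL2, a sialyltransferase that can make SSEA4, was 0.35 and 0.42, against 0.16 and 0.16. FUT1, a fucosyltransferase, was 0.68 and 0.36, against -0.70 and 0.49, so the classes overlapped. FUT1 and FUT2 were the only fucosyltransferases measured, so these values do not cover every enzyme of the epitopes.

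Of 21 measured genes of epithelial adhesion and polarity, 13 were lower and 8 higher in the SSEA1-labelled lines (median -0.16). With no overlap were 11 and 2 of them, beside 23.4% of all genes lower and 20.3% higher. SPINT2 was among the 11 only narrowly, with -0.06 in 30AC5 against -0.05 in iPF4-2, and its 2 probe sets differed by -1.35 and 0.33. EPCAM, an epithelial surface adhesion protein, stood at -0.16 (PS24) and -1.03 (30AC5), against 3.18 (iPF4-2) and 4.98 (iPSCs-w), differing by -4.68 (SE 0.68, limma adjusted p = 0.117). CDH1, E-cadherin, averaged 0.35 and 0.61, against 1.46 and 2.75, and its 2 probe sets differed by -2.60 and -0.64. DSP, the desmosome protein desmoplakin, averaged -0.46 and 0.60, against 1.28 and 2.46, and its 2 probe sets differed by -3.07 and -0.54. The higher genes with no overlap were MAL2, described above, with a mean difference of 3.41 over its 2 probe sets, and JUP, the junction protein plakoglobin, at 0.00 and -0.17, against -0.65 and -0.44. Of the keratins, 3 of 4 were lower with no overlap (median -1.76; -1.04 without PS24, -2.48 without 30AC5). KRT8 was one of the 3 by a gap of 0.0146, and its 2 probe sets differed by -3.05 and 0.32. KRT19, a keratin of simple epithelia, was -1.04 and -0.30, against 1.62 and 1.36 (-2.16, SE 0.35, limma adjusted p = 0.144). KRT18, which pairs with KRT8 in simple epithelia, was -1.93 in PS24 but 1.12 in 30AC5, against 3.34 and 2.81, so the SSEA1-labelled lines differed by more than 3 units there. With the brightest probe set per gene the keratin median was -2.61 and the epithelial median -0.40.

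Mesenchymal genes were divided too. Of 29 measured genes of the fibroblast and mesenchymal list 18 were higher and 11 lower (median 0.21). With no overlap were 7 and 5 of them, beside 20.3% and 23.4% of all genes. Without iPSCs-w the median was -0.19, and without iPF4-2 it was 0.61. PRRX1, a mesenchymal transcription factor, was -0.89 and -0.62 in PS24 and 30AC5, against -3.77 and -4.99 in iPF4-2 and iPSCs-w (3.62, SE 0.46, limma adjusted p = 0.101). CDH6, a cadherin of kidney and neural crest, was 2.80 and 5.65, against -0.20 and -0.51 (4.58, SE 0.94, limma adjusted p = 0.213). LUM, a matrix proteoglycan, was -0.44 and -0.02, against 3.77 and -0.69, so among the lines iPF4-2 alone was high, and PEF was at 7.34.

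Genes of MHC class I presentation load peptides cut by the immunoproteasome onto class I molecules for display to T cells. Of 14 measured genes 11 were higher, all 11 with no overlap, and 3 were lower (median 0.79). Of the 3, 2 had no overlap: CALR and PDIA3, chaperones of class I assembly. Among all genes 20.3% were higher and 23.4% lower with no overlap. None passed the threshold in limma. With each line left out in turn the median stayed between 0.77 and 1.01. B2M was among the 11 by a gap of 0.0426, and its 9 probe sets differed by -0.11 to 1.48. SLA-3, a class I heavy chain, was 2.29 and 1.81 in PS24 and 30AC5, against -0.29 and -0.76 in iPF4-2 and iPSCs-w (2.58, SE 0.32, limma adjusted p = 0.0983). Heavy chain genes are near copies of each other, so their probe sets may share signal. PSME1, a proteasome activator subunit, was 1.36 and 0.87, against -0.73 and -0.88 (1.92, SE 0.29, limma adjusted p = 0.124). TAPBP, tapasin, which bridges class I molecules to the peptide transporter, was 0.00 and -0.25, against -1.83 and -2.21. PSMB8, an immunoproteasome subunit, was 1.04 and 0.99, against -0.28 and -0.73.

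Of 17 measured genes of cholesterol and lipid synthesis 14 were lower, 12 of them with no overlap, and 3 were higher, all with overlap (median -0.66). The share of all genes lower with no overlap was 23.4%. None passed the threshold in limma. The list holds SQSTM1, an autophagy receptor that is not an enzyme of the pathway, which was among the 3. HMGCS1, the synthase that opens the mevalonate pathway, was -0.36 and -1.50 in PS24 and 30AC5, against 0.59 and 1.47 in iPF4-2 and iPSCs-w (-1.96, SE 0.52, limma adjusted p = 0.300). SQLE, squalene epoxidase, was -1.17 and -1.15, against 0.02 and 0.67 (-1.51, SE 0.32, limma adjusted p = 0.224). FDFT1, squalene synthase, was -0.34 and -0.95, against 0.52 and 1.03. INSIG1, which holds back the sterol-sensing SREBP factors, averaged -0.90 and -1.09, against -0.21 and 1.39, but its probe sets differed by -2.72 and -0.46. iPSCs-w held the highest value at most of these genes, and without one line the median lay between -0.95 and -0.43.

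**Figure D3:**
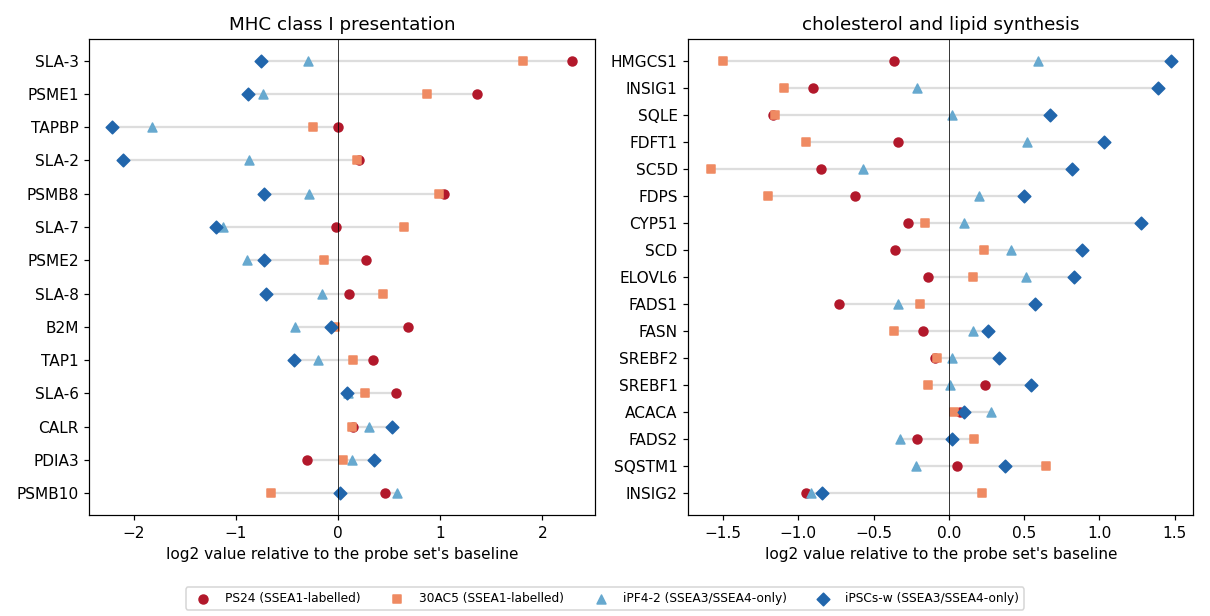
Log2 value of each iPS line relative to the baseline, averaged over the probe sets of a gene, for the 14 measured MHC class I genes and the 17 measured cholesterol and lipid genes. The SSEA1-labelled lines lie right of the other lines for 11 of 14 genes on one panel and left of them for 12 of 17 on the other.

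HOX genes set position along the body axis, and 6 of the 39 listed were measured. All 6 were higher (median 1.70). Of the 6, 4 had no overlap, beside 20.3% of all genes. The median was 0.84 with the brightest probe set per gene. HOXD12, among the 4, had 2 probe sets that differed by 0.47 and 4.11. HOXA9 was 2.99 and 2.71 in PS24 and 30AC5, against -4.49 and -2.02 in iPF4-2 and iPSCs-w (6.10, SE 0.82, limma adjusted p = 0.111). HOXA3 was -0.26 and 1.82, against -2.10 and -2.05 (2.85, SE 0.70, limma adjusted p = 0.278). HOXD8 was 1.23 and 2.04, against 0.01 and 1.02, so 30AC5 was the higher SSEA1-labelled line at both of these genes.

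Glycolysis genes were higher in the mean for 18 of 21 measured genes and lower for 3 (median 0.28, or 0.17 without 30AC5). With no overlap were 11 and 2 of them, beside 20.3% and 23.4% of all genes. None passed the threshold in limma. SLC16A3 was described above as the widest of them. PFKP, the platelet form of phosphofructokinase, was 1.82 and 1.09 in PS24 and 30AC5, against -0.14 and 0.13 in iPF4-2 and iPSCs-w (1.46, SE 0.35, limma adjusted p = 0.262). LDHA, which makes lactate, was 0.04 and 0.03, against -0.27 and -0.04. ENO2, the neuronal enolase, was -0.41 and 1.91, against -0.55 and -1.96.

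Markers of early lineages were divided. For comparison with the counts that follow, 20.3% of all genes were higher and 23.4% lower with no overlap. Of 15 measured trophoblast genes 5 were higher and 10 lower, 4 and 5 of them with no overlap (median -0.03; 0.01 without iPF4-2). SLPI, described above, is in this list as a higher gene, and TFAP2C and HSD17B2 as lower ones. DLX5, a homeobox factor, was -0.23 and -0.46 in PS24 and 30AC5, against 3.09 and 1.07 in iPF4-2 and iPSCs-w. GATA3, a trophectoderm factor, went the other way, at 2.06 and 0.31, against -0.30 and -1.16. These are means of 4 probe sets that differed by 0.33 to 2.80. Of 21 endoderm genes 10 were higher and 11 lower, 7 and 3 of them with no overlap (median -0.08; 0.04 without PS24, 0.05 without 30AC5 and 0.18 without iPF4-2). APOA2, a lipoprotein of yolk sac and liver, was 0.20 and -0.09, against 2.67 and 2.70 (-2.63, SE 0.26, limma adjusted p = 0.0642). CXCR4, a chemokine receptor of definitive endoderm, was 1.97 and 3.13, against 0.59 and 0.79.

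Of 9 ectoderm and neural genes 4 were higher, all with overlap, and 5 lower (median -0.50, or 0.01 without iPF4-2 and -2.25 without iPSCs-w). Among the 5, 4 had no overlap, and of all genes 23.4% were lower with no overlap. GAP43, a growth cone protein, was -2.42 and -2.67 in PS24 and 30AC5, against 1.90 and 0.60 in iPF4-2 and iPSCs-w (-3.80, SE 0.48, limma adjusted p = 0.101). FABP7, a fatty acid carrier of neural progenitors, was -2.75 and -1.04, against 4.63 and 0.87 (-4.64, SE 1.33, limma adjusted p = 0.326). iPF4-2 stood highest at both, as it did at NCAM1, a neural adhesion protein.

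Signalling lists had medians near that of all genes, with a few members far apart. Of 15 FGF and ERK genes 10 were higher, 4 of them with no overlap, and 5 lower, 2 with no overlap (median 0.18). FGF2, basic fibroblast growth factor, averaged 1.96 and 3.24 in PS24 and 30AC5, against 0.28 and 0.37 in iPF4-2 and iPSCs-w. Of 26 TGF-beta, activin and BMP genes 17 were higher, 7 with no overlap, and 9 lower, 2 with no overlap (median 0.13). As a reference for both lists, 20.3% of all genes were higher and 23.4% lower with no overlap. FST, the activin-binding protein follistatin, was 1.52 and 2.47, against 0.54 and -0.56, and ID3, a target of BMP signalling, was 0.41 and -0.10, against -1.39 and -2.63. Both lay higher in the SSEA1-labelled lines without passing the threshold.

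Of 13 Wnt genes 8 were higher, 3 with no overlap, and 5 lower, 0 with no overlap (median 0.02; -0.11 without 30AC5, -0.04 without iPSCs-w). LEF1, a transcription factor of the pathway, was 1.62 and 1.69 in PS24 and 30AC5, against 1.35 and -2.92 in iPF4-2 and iPSCs-w, so iPSCs-w alone was low. Of 12 LIF, JAK and STAT genes 6 were higher, 4 with no overlap, and 6 lower, 2 with no overlap (median 0.01; -0.11 without 30AC5, -0.07 without iPF4-2). Beside these and the Wnt counts, 20.3% of all genes were higher and 23.4% lower with no overlap. JAK1, a receptor kinase, averaged 1.33 and 1.67, against -1.05 and -0.01. Its 2 probe sets differed by 3.04 and 1.02.

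Of 22 NF-kappaB and chemokine genes 13 were higher, 7 with no overlap, and 9 lower, 3 with no overlap (median 0.09). The shares of all genes, for this list and the interferon list, were 20.3% higher and 23.4% lower with no overlap. IL18, a cytokine, was 2.18 and 1.61 in PS24 and 30AC5, against -2.97 and -1.33 in iPF4-2 and iPSCs-w (4.05, SE 0.60, limma adjusted p = 0.121). NFKBIA, the inhibitor that NF-kappaB induces, was 2.04 and 1.75, against -0.21 and -0.12. Of 19 interferon response genes 11 were higher, 7 with no overlap, and 8 lower, 0 with no overlap (median 0.13; -0.03 without 30AC5). ISG15, a ubiquitin-like interferon target, was -0.16 and -0.64 in PS24 and 30AC5, against -0.86 and 2.86 in iPF4-2 and iPSCs-w, so iPSCs-w alone was high. Blood and macrophage genes had a median of 0.08, or -0.07 without iPSCs-w.

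**Figure D4:**
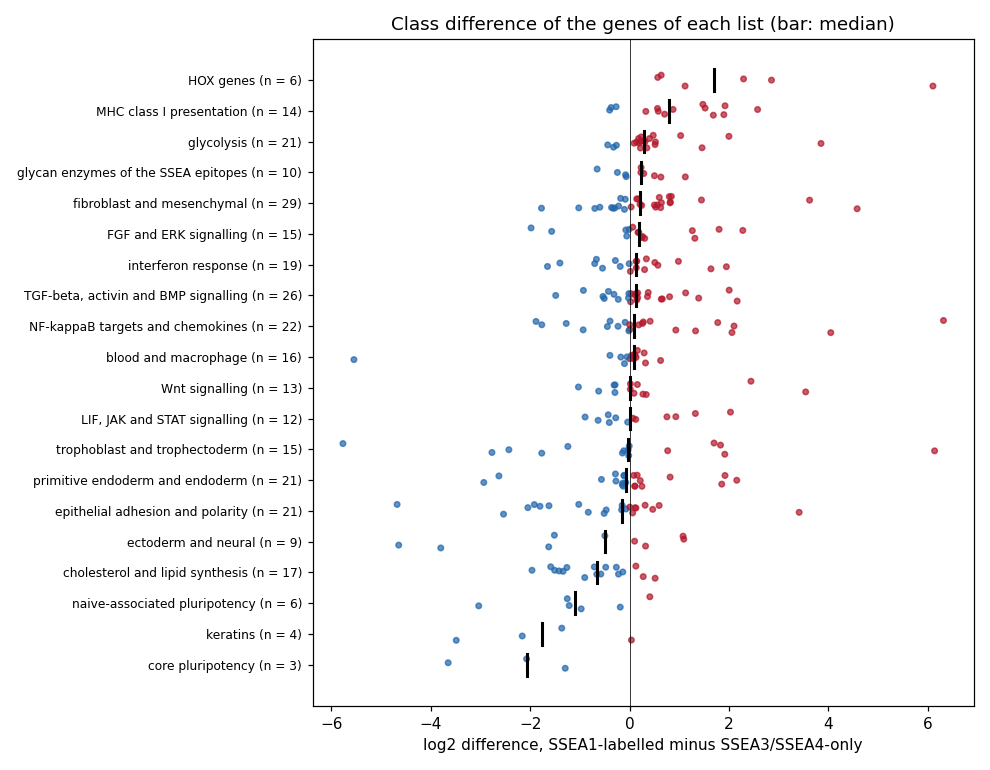
Log2 difference between the class means, SSEA1-labelled minus SSEA3/SSEA4-only, for the measured genes of 20 lists. One point is 1 gene and a black bar is the list's median; core pluripotency, keratin and naive-state medians lie lowest and HOX and MHC class I medians highest.

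The lines of one class did not always agree. A line stood at least 2 units from each other line, with the other 3 within 1 unit, at 68 probe sets for PS24 (24 higher, 44 lower), 55 for 30AC5 (43 and 12), 68 for iPF4-2 (58 and 10) and 83 for iPSCs-w (47 and 36). The genes that follow were picked as the largest differences within a class.

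EIF1AY, a Y-linked translation factor, crossed the classes. Its values were -0.06 and -6.42 in PS24 and 30AC5, and 0.22 and -6.42 in iPF4-2 and iPSCs-w. One line of each class was therefore low, as was PEF, at -6.27. STMN2, a microtubule regulator of neurons, crossed them too, at 2.31 and -1.04 in PS24 and 30AC5, and 2.84 and -4.31 in iPF4-2 and iPSCs-w, by the probe set with the wider range.

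In the SSEA1-labelled class, SELP, the adhesion receptor P-selectin, was 5.07 in PS24 and 0.19 in 30AC5, against 0.20 and 0.00 in the other lines. CXCL8, a neutrophil chemokine like CXCL2, was 0.07 in PS24 and 4.27 in 30AC5, against 0.45 and -0.31. F3, tissue factor, was 0.00 in PS24 and 4.58 in 30AC5, against 0.00 and -1.10. Among the lines CXCL8 and F3 were thus high in 30AC5 alone, and they were high in PEF, at 6.59 and 4.40. GATA2, a factor of blood and trophoblast, was 3.54 in PS24 and 0.01 in 30AC5, against 2.06 and 1.77. By its second probe set PS24 and 30AC5 differed by 1.91.

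In the SSEA3/SSEA4-only class, IFNG, interferon gamma, was 0.02 and 0.15 in PS24 and 30AC5, against 4.71 and -0.63 in iPF4-2 and iPSCs-w. IFIT3, an interferon-induced gene, was 0.26 and -0.26, against -0.96 and 4.26. FBP1, a gluconeogenic enzyme, was 0.73 and 1.55, against 0.42 and 5.56. Among the 4 lines, FBP1 and IFIT3 were thus high in iPSCs-w alone, while IFIT3 was 2.64 in PEF. ATP6V0D2, a proton pump subunit, was 0.06 and -0.31, against 0.67 and 4.76. FN1, the matrix protein fibronectin, was 0.84 and 0.23, against 1.00 and -5.39, by the probe set of widest range. Its other 3 probe sets differed by 0.45, 0.53 and 3.71 between iPF4-2 and iPSCs-w.

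**Figure D5:**
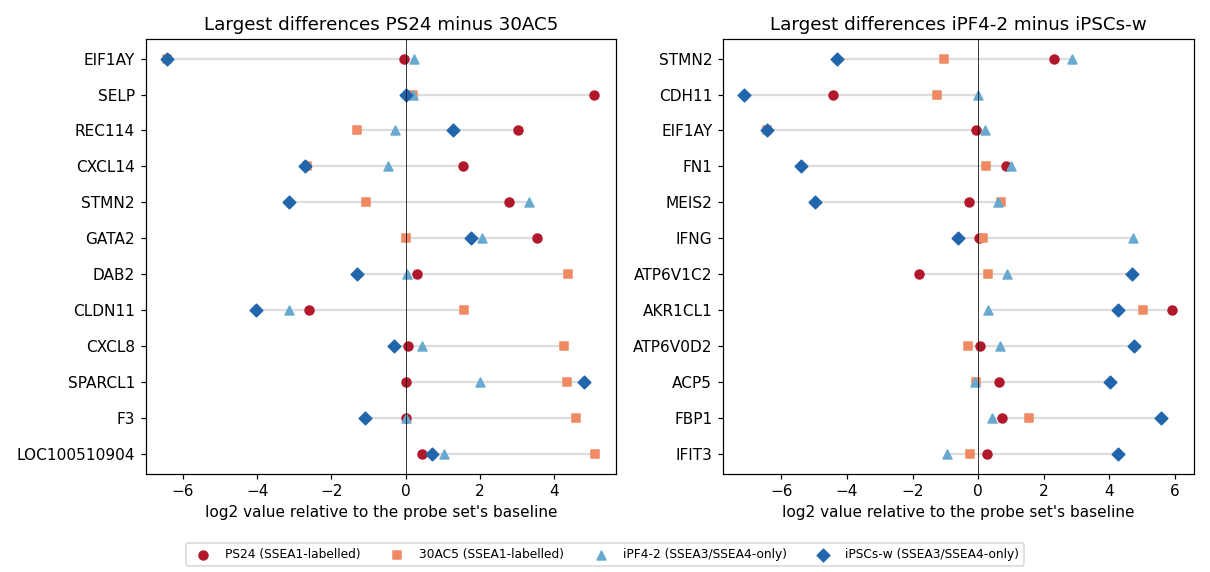
Log2 value of each iPS line, relative to the probe set's baseline, for the 6 genes per direction with the largest difference between the 2 lines of a class. EIF1AY and STMN2 appear on both panels, with 1 line of each class high and 1 low.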

How the data were processed

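Per the labels' protocols, Affymetrix Pig Genome Arrays were hybridised with biotin-labelled RNA. The deposited table gives log2 values, whose log base was read from their range; how the scans were corrected, summarized and normalized, and to which baseline, is not given in the sources used here. Of 24123 probe sets, 124 AFFX and 64 RPTR controls were left out and 23935 tested. The platform annotation gave 10069 of these 1 symbol (6765 genes), 198 several and 13668 none.

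The classes were compared with limma 3.58.1 (R 4.3.3; lmFit and eBayes, two-sided, 2 residual degrees of freedom), on the 4 iPS arrays, with Benjamini-Hochberg adjustment and a threshold of 0.05. Simulated data with independent normal noise were used to check the size of the estimated difference. That check does not show how the calls behave on the real arrays. List genes are means of their probe sets.

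Named genes were those past the threshold, the 15 per direction with the widest gap between classes, the 6 per direction with the largest difference within each class, and for each list the 4 members that differed most; other list members are also named. A part of these is printed. The 37 lists held 1000 genes, of which 606 were measured. The 17 lists not described one by one had medians between -0.97 and 0.56. Members and lists were chosen with earlier results of these data known.

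Alternatives were quantile normalization, median centring, a trended or a robust eBayes (statmod 1.5.0), all 6 arrays, treat, a filter on low means, 1 value per gene, the brightest probe set, and leaving out each line.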

Additional observations from a re-analysis of the deposited data

How the results depend on the processing

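The count of 4 calls was 0 with quantile normalization (2684 at an unadjusted p under 0.05), with all 6 arrays (682) and with treat against a change of 1 (593). It was 2 after median centring, 8 with a trend, 4 with robust eBayes, 1 with 1 value per gene and 41 without the 40% of lowest mean (26 higher, 15 lower). Without one line it was 0 to 0 in limma, with 1909 to 2650 at an unadjusted p under 0.05, on 1 residual degree of freedom. The share of probe sets that did not overlap was 66.8% to 73.8% without one line, since fewer lines overlap less often by construction. Directions of the named genes are not counted, since most settings leave the difference unchanged by construction. AIF1 lost its call under 7 settings, and FXYD5 and SFRP1 gained one with a trend (limma adjusted p = 0.0494 for both). List medians ranged, without one line, as follows: core pluripotency -2.92 to -1.22, keratins -2.48 to -1.04, glycan enzymes 0.03 to 0.34, glycolysis 0.17 to 0.38, cholesterol -0.95 to -0.43, HOX 1.34 to 2.19, MHC class I 0.77 to 1.01, naive-state -0.95 to -0.83, epithelial -0.40 to -0.18, fibroblast -0.19 to 0.61, trophoblast -0.23 to 0.01, endoderm -0.07 to 0.18, NF-kappaB 0.14 to 0.17, ectoderm -2.25 to 0.01, blood -0.07 to 0.15, interferon -0.03 to 0.29, FGF 0.03 to 0.26, TGF-beta 0.12 to 0.19, Wnt -0.11 to 0.16 and LIF -0.11 to 0.06. With the brightest probe set per gene the medians were -0.40 (epithelial), -2.61 (keratins), 0.84 (HOX) and -0.14 (trophoblast). The cause of these shifts was not tested. No paired analysis was made, since the 4 arrays are 4 different lines and the labels pair none of them across the classes.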
